A study of Homo sapiens with 6 samples.

Results

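The genes described here are the pseudogenes and other minor RNA classes of a knockdown experiment, that is, all genes whose annotated biotype was neither protein_coding nor lncRNA. They were 84 of the 2128 genes in the table of each library. In all, 21 were classed as processed_pseudogene, 20 as transcribed_unprocessed_pseudogene, 17 as TEC, 7 as polymorphic_pseudogene, 6 as transcribed_processed_pseudogene, 5 as unprocessed_pseudogene and 4 as transcribed_unitary_pseudogene. The others were 2 misc_RNA genes, 1 scRNA gene and 1 snoRNA gene. The biotypes are those of the deposited tables, and the rule itself uses no measured value.

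RNA-seq was made from SNU668, an established human line of signet-ring stomach cancer cells, in 3 libraries titled shGPER and 3 titled shControl. In shGPER cells short hairpin RNA was used to knock down GPER1, which codes for a membrane estrogen receptor that signals through G proteins, and the control cells are titled as hairpin controls but have the genotype WT in the labels. The labels do not say how many hairpins or cultures were used, so p-values measure the spread between these libraries, and the loss of GPER1 cannot be told apart from what a hairpin does to other targets. Values are TPM, the share of a gene among all transcripts of a library per unit of transcript length, scaled to a fixed total.

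Processed pseudogenes arise when an mRNA is copied into DNA and inserted elsewhere in the genome, so they lack the introns of their parent gene, whereas unprocessed pseudogenes arise from duplicated DNA and unitary pseudogenes are former genes with no working copy left. Their sequences are close to those of their parents, and short reads are hard to assign between the copies. TEC is the annotation's class for transcribed loci that await experimental proof. 7SL RNA is the RNA core of the signal recognition particle, which brings ribosomes that make secreted and membrane proteins to the endoplasmic reticulum, and U3 is a small nucleolar RNA needed for the first cuts of the ribosomal RNA precursor. Neither RNA carries the long poly(A) tail by which an mRNA library kit captures its targets.

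For pseudogenes, 120-base stretches of copy and parent are printed where the copy is among the most changed of its class, from GENCODE 29 transcripts on GRCh38, with capitals at each position that differs within a family. HMGN2P4 (chr5:76242176-76242295, minus strand) differed from HMGN2 (joined exons within chr1:26472613-26474114, plus strand) at 2 positions.
HMGN2P4: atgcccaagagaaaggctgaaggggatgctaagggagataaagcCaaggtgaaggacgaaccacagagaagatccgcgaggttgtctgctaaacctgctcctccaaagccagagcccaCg
HMGN2: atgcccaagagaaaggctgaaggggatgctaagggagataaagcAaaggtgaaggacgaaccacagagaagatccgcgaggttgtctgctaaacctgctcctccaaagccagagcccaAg
MEIS3P1 (chr17:15786618-15786737, plus strand) and MEIS3P2 (chr17:20589293-20589412, plus strand) differed from MEIS3 (joined exons within chr19:47417243-47419081, minus strand) at 9 and 8 positions.
MEIS3P1: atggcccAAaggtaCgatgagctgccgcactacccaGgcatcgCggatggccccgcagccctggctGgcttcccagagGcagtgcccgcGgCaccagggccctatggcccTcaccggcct
MEIS3P2: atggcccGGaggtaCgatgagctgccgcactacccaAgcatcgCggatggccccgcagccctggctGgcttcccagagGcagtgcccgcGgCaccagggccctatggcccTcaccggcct
MEIS3: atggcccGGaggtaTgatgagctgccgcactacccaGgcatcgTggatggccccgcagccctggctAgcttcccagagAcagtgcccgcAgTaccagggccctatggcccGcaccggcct
HNRNPA1P33 (chr10:46415853-46415972, plus strand) differed from HNRNPA1 (joined exons within chr12:54282207-54282419, plus strand) at 7 positions.
HNRNPA1P33: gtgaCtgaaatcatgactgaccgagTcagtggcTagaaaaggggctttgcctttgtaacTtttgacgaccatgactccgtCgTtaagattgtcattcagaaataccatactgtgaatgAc
HNRNPA1: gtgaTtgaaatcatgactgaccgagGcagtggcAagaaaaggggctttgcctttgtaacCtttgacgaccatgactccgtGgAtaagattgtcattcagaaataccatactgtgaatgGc
Read in the frame of the parent, the HNRNPA1P33 stretch holds the stop codon tag at bases 34 to 36, counted from its first base, whereas the HMGN2P4, MEIS3P1 and MEIS3P2 stretches hold none in their 40 codons.

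GPER1 stood at 1.83, 2.41 and 2.47 TPM in shGPER cells and at 11.04, 11 and 10.41 TPM in shControl cells, 20.7% of the control mean (log2 change -1.87 ± 0.11 SE). The 2128 genes summed to 46584 to 49148 TPM in shGPER libraries and 61181 to 64236 TPM in shControl libraries, a small part of all transcripts. Of the genes tested, 98.4% were called at an adjusted p under 0.05 (limma on log2(TPM + 1), Benjamini-Hochberg), so nearly every gene listed separated the groups, and how the list was drawn up is not known here. Of the markers looked up, the epithelial CDH1 stood at 0.11 to 0.42 TPM in shGPER libraries and 0.44 to 0.71 TPM in shControl libraries, and the gastric TFF1 at 0.26 to 2.91 and 4.44 to 6.22 TPM. The intestinal CDX2 stood at 0.82 to 1.39 TPM in shGPER libraries and 0.3 to 0.47 TPM in shControl libraries, and the other markers of these 3 lists, 15 of 18, were not analysed here. The 6 markers of other cells in the table, of 13 looked up, summed to 71 to 75.8 TPM in shGPER libraries and 11 to 14.4 TPM in shControl libraries, with none at 0. COL1A1, CDH5, SYP and CHGB were called higher in shGPER libraries and DCN and LUM lower. All libraries are titled as the SNU668 line, so these markers do not show that other cell types were present. Their part in the results was not tested. In bulk RNA a change in the number of cells and a change in RNA per cell cannot be told apart.

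Minor biotype genes went both ways after knockdown. Of the 43 that could be tested, with 3 or more libraries at 1 TPM or above, 21 were called higher and 22 lower, beside 47.8% higher and 50.6% lower over all 1651 tested genes. The members' shares, 48.8% and 51.2%, were thus near the background of the table and are no result about these classes. A fall of at least 2-fold on the log2(TPM + 1) scale was seen in 8 genes and a rise of that size in 17. The other 41 genes were too low to test, and 31 genes stayed under 1 TPM in all 6 libraries. The 3 shGPER values lay wholly above the 3 shControl values in 44 of the 84 genes and wholly below in 37, together 96.4%, beside 95.3% over the whole table (52.8% above and 42.6% below). With no filter, all 84 could be fitted, and 41 were called higher and 39 lower, beside 53.0% and 43.0% over the table. The groups overlapped in NPM1P9, SMG1P6 and SRP54-AS1, named here after their values were seen. SRP54-AS1 was still called lower (0.79, 1.91 and 2.80 TPM in shGPER cells against 4.36, 3.91 and 2.55 TPM in shControl cells), but lost the call without shGPER replicate 1, shControl replicate 1 or shControl replicate 2. In 8 of the genes called higher every shControl value was under the limit of 1 TPM, so the filter itself fixed their direction. The same held for 1 gene called lower, HSPD1P11, whose shGPER values were all under it.

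**Figure D1:**
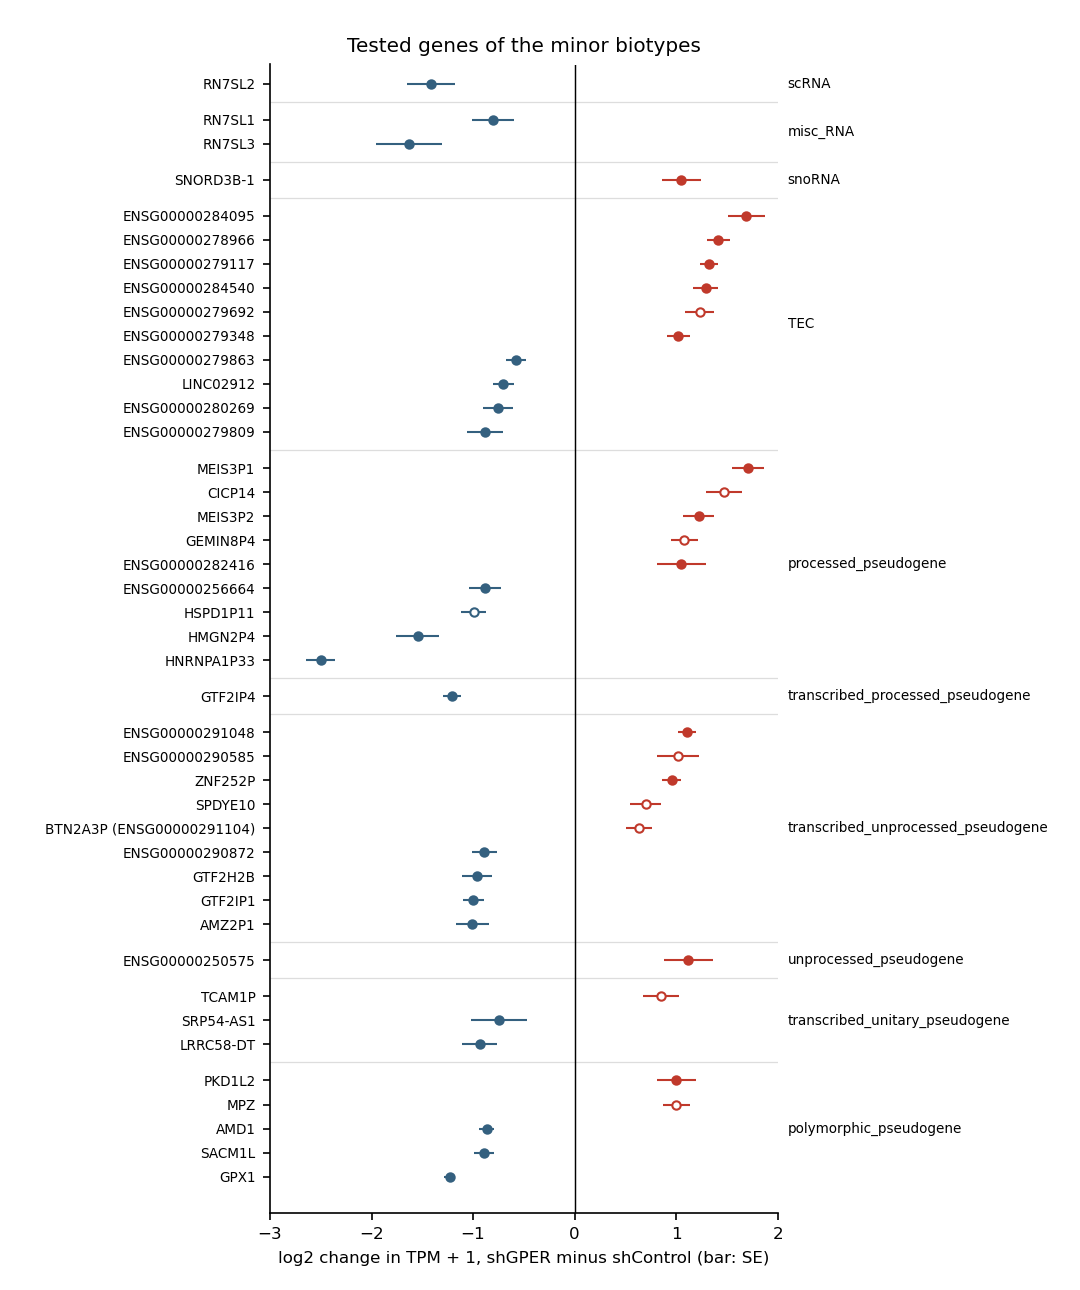
Log2 change in TPM + 1 (shGPER minus shControl, horizontal axis) of 42 of the 43 tested genes, by biotype; points are limma estimates, bars are SE, and open points mark genes that passed the filter through 1 group only. HNRNPA1P33 lies farthest below 0 at -2.50 and MEIS3P1 farthest above at 1.71.

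RN7SL2 and RN7SL1 were the most abundant members, and all 7SL RNAs fell. RN7SL2 was at 1331.98, 886.18 and 985.43 TPM in shGPER cells, against 4011.62, 2666.24 and 2071.41 TPM in shControl cells. RN7SL1 was at 486.08, 379.75 and 389.46 TPM in shGPER cells, against 1029.12, 661.37 and 564.00 TPM in shControl cells. RN7SL3 was at 48.87, 56.05 and 24.20 TPM in shGPER cells, against 172.16, 131.97 and 91.68 TPM in shControl cells. In each case all shGPER values were below all shControl values, though the shControl libraries themselves spread widely, with RN7SL2 at 2916 ± 994 TPM (SD, n = 3) beside 1068 ± 234 TPM in shGPER cells. The log2 changes were -1.42 ± 0.24 for RN7SL2 (SE; adjusted p = 4.41e-04), -0.80 ± 0.21 for RN7SL1 (adjusted p = 0.0048) and -1.63 ± 0.32 for RN7SL3 (adjusted p = 0.00115), all by limma with Benjamini-Hochberg adjustment. The RN7SL1 call was lost under quantile normalization, where its change was -0.18 (adjusted p = 0.563).

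The 3 copies did not fall by the same factor. Within a library, the ratio of RN7SL2 to RN7SL1 was 2.74, 2.33 and 2.53 in shGPER cells and 3.90, 4.03 and 3.67 in shControl cells. The ratio of RN7SL3 to RN7SL1 was 0.101, 0.148 and 0.062 in shGPER cells and 0.167, 0.2 and 0.163 in shControl cells. Neither ratio overlapped between the groups. These ratios rest on how the authors' counting split reads among copies: 94.8% of the 31-base words (runs of 31 bases) of RN7SL2 and 72.9% of those of RN7SL3 occur in another annotated transcript, and RN7SL1 lies wholly inside a second annotated transcript.

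Summed, the 7SL genes made up 81.2, 73.6 and 74.7% of the TPM of all minor biotypes in shGPER libraries and 89.3, 84.6 and 80.6% in shControl libraries. Their sum was 1867, 1322 and 1399 TPM in shGPER libraries, against 5213, 3460 and 2727 TPM in shControl libraries. The difference of the means was 15.8% of the difference in the sum of the whole table. No test was made on these sums.

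U3 moved the other way. Its gene SNORD3B-1 was at 7.98, 6.79 and 8.53 TPM in shGPER cells, against 3.41, 4.38 and 2.15 TPM in shControl cells, without overlap. The log2 change was 1.05 ± 0.19 (SE; adjusted p = 7.24e-04, limma with Benjamini-Hochberg adjustment). Of its 31-base words 92.9% also occur in other transcripts, mostly in SNORD3B-2, another U3 gene. The other U3 genes were not analysed here, so a change in the sum over U3 copies cannot be told apart from a different split of reads among them.

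**Figure D2:**
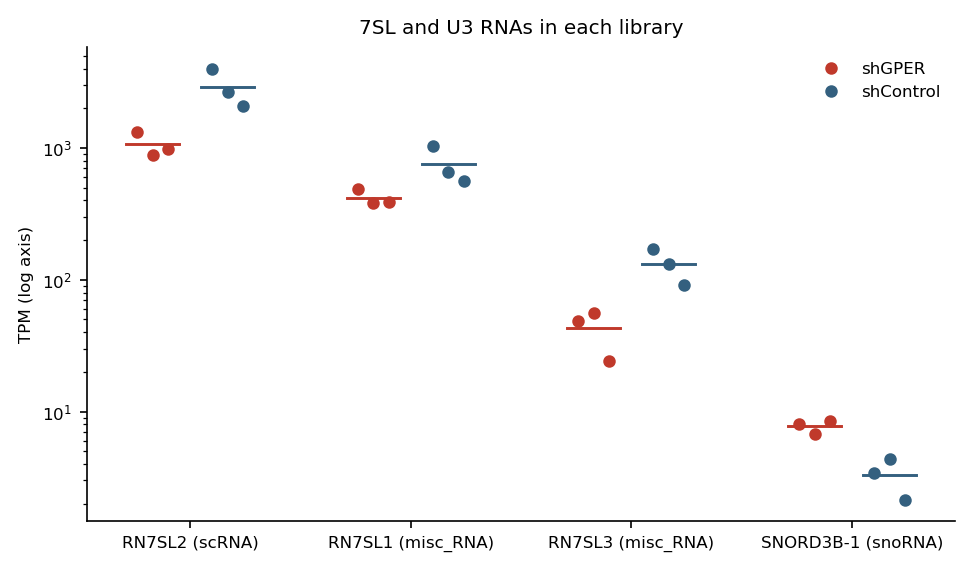
TPM (log axis) of the 3 7SL genes and of the U3 gene SNORD3B-1 in each library; points are libraries, short lines are group means, shGPER left of shControl. The 7SL genes are lower and SNORD3B-1 is higher in every shGPER library than in any shControl library.

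Among members called higher, a TEC gene, ENSG00000284540, had the highest level. Of the 17 TEC genes, 10 were tested, of which 6 were called higher and 4 lower. Their summed TPM was 113, 123 and 131 in shGPER libraries, against 50.2, 48.0 and 59.6 in shControl libraries, 232% of the control mean. The largest part came from ENSG00000284540, with 54.50, 58.73 and 68.54 TPM in shGPER cells and 22.98, 21.02 and 28.66 TPM in shControl cells (log2 change 1.29 ± 0.12 SE, adjusted p = 1.50e-05). ENSG00000284095 was at 18.82, 19.46 and 17.60 TPM in shGPER cells and at 4.47, 3.91 and 7.32 TPM in shControl cells (1.69 ± 0.18, adjusted p = 2.90e-05). ENSG00000278966 was at 9.77, 11.59 and 9.54 TPM in shGPER cells and at 3.25, 3.55 and 2.88 TPM in shControl cells (1.42 ± 0.11, adjusted p = 4.88e-06). None of the 3 overlapped between the groups. Of their 31-base words 67.5 to 84.1% occur in other transcripts, most often in METTL21A, which was not analysed here. Reads may be split among such transcripts, so the 3 genes are not separate observations.

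ENSG00000279117 on chromosome 11 was at 19.29, 19.76 and 22.64 TPM in shGPER cells and at 7.26, 7.46 and 8.10 TPM in shControl cells (log2 change 1.32 ± 0.09 SE, adjusted p = 2.01e-06). Some 21.6% of its exonic bases lie opposite an antisense transcript, and no source used here says whether counting used strand. ENSG00000279692 on chromosome 17, which shares no 31-base word with another transcript, was at 1.71, 2.25 and 2.88 TPM in shGPER cells and 0.40, 0.37 and 0.37 TPM in shControl cells, and so passed the filter through shGPER alone. The 4 TEC genes called lower had means of 0.97 to 1.04 TPM in shGPER cells and 2.05 to 2.71 TPM in shControl cells. They were the 4 tested TEC genes with the smallest absolute change. None of them stayed called lower with the trend with GC content removed, a fit described further on. One of them, ENSG00000279809, lies wholly in an exon of MSL3P1 on the same strand, so their reads cannot be told apart.

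**Figure D3:**
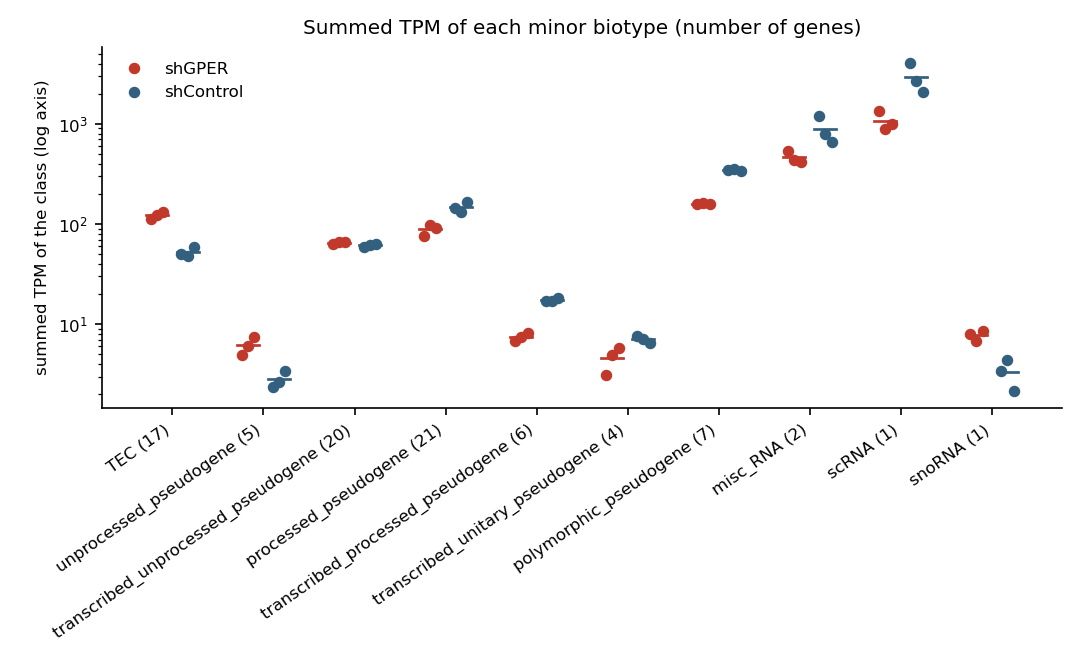
Summed TPM (log axis) of each minor biotype in each library, with the number of genes in brackets; points are libraries, short lines are group means, shGPER left of shControl. TEC, unprocessed pseudogenes and the snoRNA are higher in every shGPER library than in any shControl library. Transcribed_unprocessed pseudogenes overlap between the groups. All other classes, with the 7SL genes under misc_RNA and scRNA, are lower in every shGPER library than in any shControl library.

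The pseudogene classes together had 63 genes, of which 29 were tested, 14 called higher and 15 lower. They summed to 311 to 345 TPM in shGPER libraries and 574 to 594 TPM in shControl libraries. Without the polymorphic_pseudogene class, which holds GPX1, the sums were 154 to 183 TPM in shGPER libraries and 221 to 257 TPM in shControl libraries. The processed and transcribed_processed pseudogenes are copies made from mRNA. They summed to 82.9, 106 and 99.9 TPM in shGPER libraries, against 162, 150 and 184 TPM in shControl libraries. Of them 5 were called higher and 6 lower, beside 47.8% and 50.6% of all tested genes. Those with the highest shControl means were both lower, ENSG00000256664 (36.9 TPM in shGPER cells and 70.1 TPM in shControl cells) and HNRNPA1P33 (5.79 and 36.8 TPM). The sum of the transcribed_unprocessed class overlapped between the groups, at 62.8 to 66.5 TPM in shGPER libraries and 58.5 to 63.4 TPM in shControl libraries, with 5 genes called higher and 4 lower. Sums follow the few genes with high TPM and were not tested.

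HNRNPA1P33, a processed copy of the gene of the RNA-binding splicing protein hnRNP A1, had the largest fall of all tested members. It was at 7.15, 5.94 and 4.28 TPM in shGPER cells, against 36.50, 37.59 and 36.44 TPM in shControl cells, 15.7% of the control mean (log2 change -2.50 ± 0.15 SE, adjusted p = 1.08e-06). The shControl values lay close together and far above all shGPER values. The copy is 95.9% identical to HNRNPA1 over 559 aligned bases, and 48.8% of its 31-base words occur in other transcripts. HNRNPA1 itself was not analysed here. HNRNPA1P33 lies within an intron of LINC00842 on the same strand, a long non-coding RNA that was also lower, at 0.41, 0.54 and 0.33 TPM in shGPER cells and 1.21, 1.51 and 1.18 TPM in shControl cells.

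For 34 pseudogenes a parent could be named, and for 10 of these, with 7 different parents, the parent was in the table. In all 10 pairs the pseudogene and its parent differed in the same direction, 6 upward and 4 downward. CIC stood in 3 of the pairs and MEIS3 in 2, and copies can draw reads from their parents, so the pairs are not independent. The pseudogene stood far below its parent in every pair, at most 14.8% of the parent's mean TPM in shGPER cells and 9.14% in shControl cells.

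MEIS3P1 and MEIS3P2, processed copies of the homeobox gene MEIS3, had the highest levels among these pseudogenes in shGPER cells. MEIS3P1 was at 6.66, 8.81 and 10.80 TPM in shGPER cells and at 1.78, 2.01 and 2.03 TPM in shControl cells (log2 change 1.71 ± 0.16 SE, adjusted p = 1.20e-05). MEIS3P2 was at 4.13, 5.07 and 5.26 TPM in shGPER cells and at 1.85, 1.04 and 1.64 TPM in shControl cells (1.22 ± 0.15, adjusted p = 7.30e-05). MEIS3 was at 52.40, 60.78 and 64.61 TPM in shGPER cells and at 23.15, 20.77 and 19.78 TPM in shControl cells (1.44 ± 0.09, adjusted p = 1.82e-06). All 3 rose without overlap between the groups. The copies are 96.5% and 96.6% identical to MEIS3, and 28.1% and 29.9% of their 31-base words occur in it. In all, 71.1% of the words of MEIS3P1 and 68.0% of those of MEIS3P2 occur in other transcripts. Most often this is the other copy (63.1% and 56.1%), so MEIS3P1 and MEIS3P2 are not separate observations.

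The parent CIC codes for the transcriptional repressor capicua. It was at 47.52, 56.89 and 65.76 TPM in shGPER cells and at 25.39, 25.89 and 26.04 TPM in shControl cells (log2 change 1.10 ± 0.11 SE). With the trend with GC content removed, a fit described further on, this change was 0.006 (adjusted p = 0.935, limma with Benjamini-Hochberg adjustment). Its copy CICP14 was at 2.38, 3.82 and 4.06 TPM in shGPER cells and at 0.64, 0.72 and 0.37 TPM in shControl cells (1.47 ± 0.18, adjusted p = 5.51e-05), and passed the filter through shGPER alone. CICP27 (0.73, 0.78 and 0.95 TPM in shGPER cells against 0.29, 0.18 and 0.34 TPM in shControl cells) and CICP16 (0.32, 0.27 and 0.19 TPM in shGPER cells against 0.04, 0.07 and 0.09 TPM in shControl cells) were too low to test. The aligned parts of the CIC copies, 48.1 to 66.1% of their length, are 82.7 to 84.0% identical to the parent. The copies share under 1% of their 31-base words with it, whereas 74.4 to 81.6% of their words occur in other transcripts.

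HMGN2, a nucleosome-binding protein, and its copy HMGN2P4 were both lower. HMGN2P4 was at 0.57, 1.79 and 1.14 TPM in shGPER cells and at 6.24, 4.35 and 5.02 TPM in shControl cells (log2 change -1.55 ± 0.21 SE, adjusted p = 1.35e-04). HMGN2 was at 122.85, 116.94 and 119.90 TPM in shGPER cells and at 368.33, 373.74 and 385.73 TPM in shControl cells (-1.64 ± 0.05). The copy is 97.3% identical to HMGN2 and 33.3% of its words occur there.

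The remaining pairs had pseudogenes too low to test. SETP3 was at 0.19, 0.41 and 0.27 TPM in shGPER cells and at 1.75, 1.36 and 0.63 TPM in shControl cells, while SET, a histone chaperone and phosphatase inhibitor, averaged 59.3 TPM in shGPER cells and 173 TPM in shControl cells. UPF3AP2 was listed at 0 in all shGPER libraries and at 0.36, 0.12 and 0.56 TPM in shControl libraries. Its parent UPF3A, a factor of nonsense-mediated decay, averaged 9.76 ± 1.19 TPM in shGPER cells and 24.0 ± 1.51 TPM in shControl cells (SD, n = 3 each). C4orf46P2 averaged 0.08 TPM in shGPER cells and 0.22 TPM in shControl cells, beside 3.29 and 6.85 TPM for C4orf46. DNM1P47 was at 0.02, 0.04 and 0.05 TPM in shGPER libraries and listed at 0 in all shControl libraries. Its parent DNM1, the GTPase dynamin that cuts off endocytic vesicles, was at 46.12, 16.09 and 16.90 TPM in shGPER cells and at 7.05, 7.62 and 5.87 TPM in shControl cells. The best alignment of DNM1P47 with DNM1 covers only 3.9% of the copy, at 79.9% identity. That of C4orf46P2 with C4orf46 covers 41.5%, at 82.3% identity.

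Whether copy or parent changed more depended on the scale. On the log2(TPM + 1) scale the copy changed less than its parent in 8 of the 10 pairs, whereas in ratios of group means, which can be formed for 8 pairs, the copy changed more in all 8. MEIS3P1, for example, had a ratio of 4.51 and MEIS3 a ratio of 2.79. An exact two-sided permutation test of the copy-minus-parent difference on the log2(TPM + 1) scale gave p = 0.1 in 7 pairs, the smallest p that 3 against 3 libraries allow, unadjusted over the 10 pairs. For MEIS3P1 it gave p = 0.2, for MEIS3P2 p = 0.4 and for HMGN2P4 p = 0.8 (exact test). No pair could therefore pass a threshold of 0.05.

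**Figure D4:**
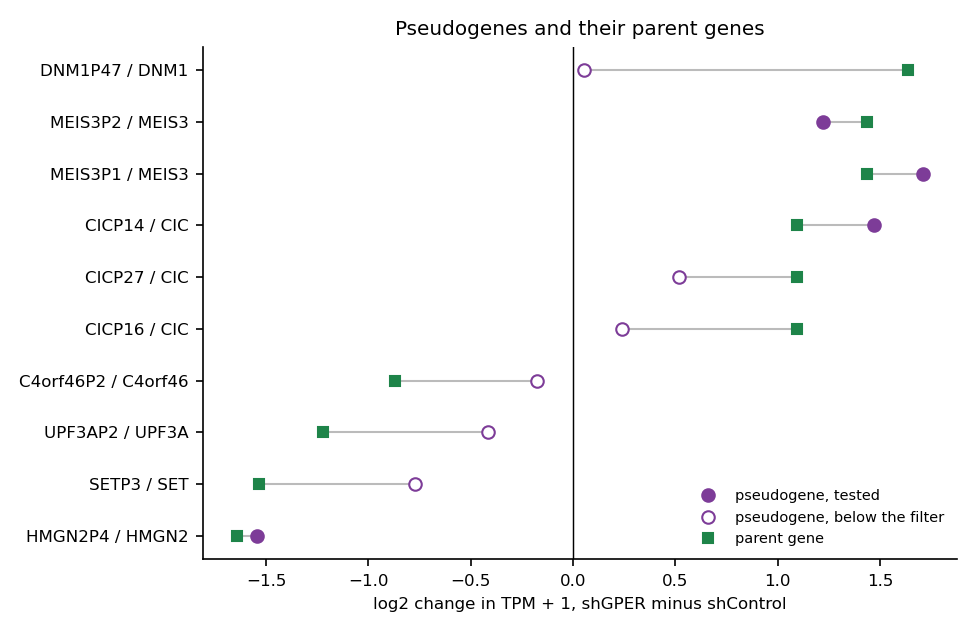
Log2 change in TPM + 1 (shGPER minus shControl) of 10 pseudogenes (circles, open where below the filter) and of their parents (squares), 1 pair per row. Both members of each pair lie on the same side of 0.

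Several changed pseudogenes had parents that were not analysed here. GTF2IP4 and GTF2IP1, copies of the gene of transcription factor TFII-I, fell to 6.16 ± 0.62 and 6.79 ± 0.87 TPM in shGPER cells, against 15.5 ± 0.37 and 14.5 ± 0.97 TPM in shControl cells (SD, n = 3 each). The log2 change of GTF2IP4 was -1.21 ± 0.09 (SE). GTF2IP4 shares 95.9% of its 31-base words with GTF2IP1, so the pair counts as 1 observation at most. It also shares 84.4% of its words with the parent GTF2I, and its aligned part is 99.8% identical to that gene. GTF2H2B, a copy of a TFIIH subunit gene, was at 1.10, 0.60 and 0.57 TPM in shGPER cells and at 2.71, 2.38 and 2.11 TPM in shControl cells (-0.96 ± 0.14 SE). Of its words 97.2% occur in other transcripts, and 91.3% in those of the protein-coding GTF2H2C. AMZ2P1 was at 4.04, 3.12 and 2.20 TPM in shGPER cells and at 6.74, 7.09 and 7.63 TPM in shControl cells (-1.01 ± 0.16 SE).

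ENSG00000256664, described in the table as a pseudogene of the ribosome assembly gene RSL24D1, lies wholly in an exon of MDM2. It was at 34.41, 36.77 and 39.66 TPM in shGPER cells and at 65.75, 55.21 and 89.26 TPM in shControl cells (-0.88 ± 0.16 SE). Its reads cannot be told apart from those of MDM2, which was not analysed here. HSPD1P11, a copy of the chaperonin gene HSPD1, averaged 0.45 TPM in shGPER cells and 1.91 TPM in shControl cells.

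Among pseudogenes that rose, GEMIN8P4, a copy of an SMN complex gene, was at 1.61, 2.45 and 2.30 TPM in shGPER cells and at 0.42, 0.54 and 0.43 TPM in shControl cells (log2 change 1.08 ± 0.13 SE), and passed the filter through shGPER alone. It shares 8.7% of its words with other transcripts. ENSG00000282416 was at 7.05, 11.41 and 15.46 TPM in shGPER cells and at 5.40, 3.84 and 4.94 TPM in shControl cells (1.05 ± 0.24 SE). Of its words 95.9% occur in FAM157A. ENSG00000250575 was at 3.29, 4.33 and 5.20 TPM in shGPER cells and at 0.67, 1.62 and 2.15 TPM in shControl cells (1.12 ± 0.24 SE), and 92.9% of its words occur in other transcripts. Both sets of values were higher in every shGPER library. ZNF252P, a zinc finger pseudogene, averaged 20.5 ± 1.73 TPM in shGPER cells and 10.1 ± 0.77 TPM in shControl cells (0.96 ± 0.09 SE). For ENSG00000291048, classed as transcribed_unprocessed_pseudogene, the means were 17.8 ± 1.10 TPM in shGPER cells and 7.72 ± 0.64 TPM in shControl cells. ENSG00000290872 of the same class went the other way, with 7.63 ± 1.22 TPM in shGPER cells and 14.9 ± 1.67 TPM in shControl cells (SD, n = 3 each).

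The polymorphic_pseudogene class held working enzyme genes. This class is meant for loci that code for a protein in some genomes and not in others, but RefSeq lists GPX1, AMD1 and SACM1L as protein-coding. GPX1, the selenoprotein glutathione peroxidase that reduces hydrogen peroxide, was at 118.50, 123.58 and 119.74 TPM in shGPER cells and at 284.74, 295.93 and 272.88 TPM in shControl cells (log2 change -1.23 ± 0.05 SE, adjusted p = 2.89e-07). AMD1, which makes decarboxylated S-adenosylmethionine for polyamine synthesis, was at 24.44, 22.19 and 21.71 TPM in shGPER cells and at 41.00, 41.14 and 44.86 TPM in shControl cells (-0.87 ± 0.07, adjusted p = 6.00e-06). SACM1L, a phosphoinositide phosphatase of the endoplasmic reticulum, was at 8.18, 10.07 and 8.25 TPM in shGPER cells and at 16.18, 17.10 and 18.38 TPM in shControl cells (-0.89 ± 0.10, adjusted p = 3.47e-05). All 3 fell without overlap between the groups. They gave nearly all TPM of the class, whose sum was 45.8% of the control mean.

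LRRC58-DT, a divergent transcript beside LRRC58 that the table classes as transcribed_unitary_pseudogene, was at 0.39, 1.06 and 1.09 TPM in shGPER cells and at 2.56, 2.16 and 2.71 TPM in shControl cells (log2 change -0.93 ± 0.17 SE, adjusted p = 8.12e-04). Some 12.7% of its exonic bases lie opposite another transcript. LRRC58 was also lower, at 6.06, 6.40 and 6.41 TPM in shGPER cells and at 11.49, 12.10 and 13.11 TPM in shControl cells. BTN2A3P, named after its values were seen, had 2 entries in the table, which were both higher in every shGPER library, with means of 1.67 and 0.49 TPM in shGPER cells and 0.73 and 0.09 TPM in shControl cells.

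Direction went with base composition. The 17 genes called higher that had a GC value had a median transcript GC content of 57.4%, and the 19 called lower one of 43.5%, close to 59.6% and 44.3% over all called genes of the table. Across the 36 genes Spearman's rho between GC content and log2 change was 0.31, with no test, since genes share libraries. It was 0.54 over the 33 without the 7SL genes and 0.59 over the 1626 tested genes of the table with a GC value. GPX1 at 62.6%, HMGN2P4 at 58.0% and the 7SL genes at 62.2 to 62.9% were the high-GC exceptions that fell, and ENSG00000279348 at 40.1% the low-GC exception that rose, named here after its values were seen. When each library's trend with GC content was removed, 13 members were called higher and 7 lower, of 36. The calls of AMD1, SACM1L, GTF2H2B, HSPD1P11, LRRC58-DT, MEIS3P2, ENSG00000250575, ENSG00000256664, ENSG00000279692 and ENSG00000282416 were lost in that fit, 16 in all; that of ENSG00000279863 turned, and 7 tested members had no GC value. Among the parents, CIC, DNM1 (0.88, adjusted p = 0.0958) and C4orf46 (0.05, adjusted p = 0.704) were not called in it. Its median change over all tested genes was 0.01, against -0.49 without the removal. The fit kept the falls of HNRNPA1P33 (-1.96), GPX1 (-2.23), HMGN2P4 (-2.25) and RN7SL2 (-2.42) and the rises of SNORD3B-1 (1.28), ENSG00000284540 (1.06) and MEIS3P1 (0.79). Because nearly all genes of the table differed, such a fit can also remove differences that are not a bias.

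**Figure D5:**
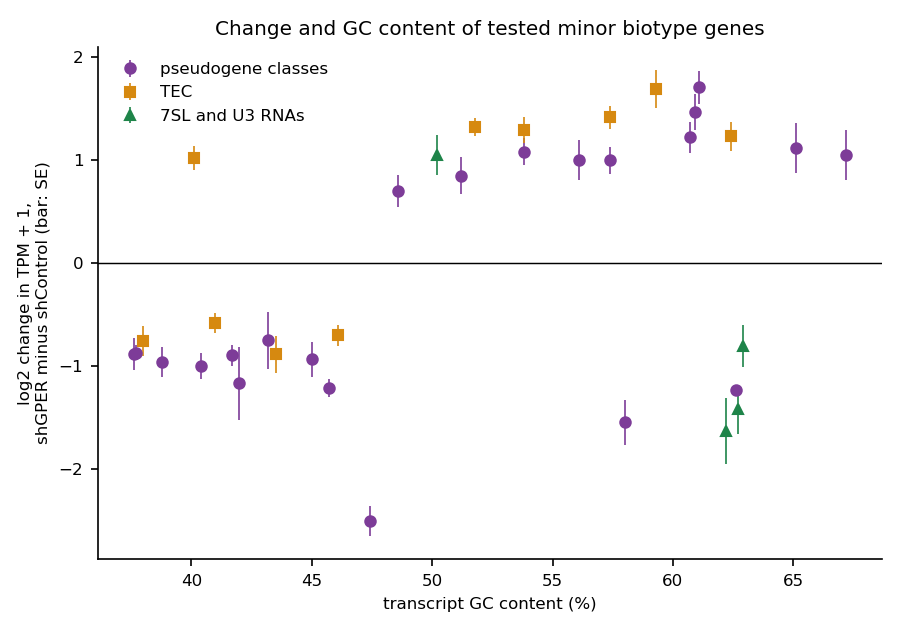
Log2 change in TPM + 1 (shGPER minus shControl, bars SE) against transcript GC content (%) of the 36 tested minor biotype genes with a GC value, with symbols for pseudogene classes, TEC and the 7SL and U3 RNAs. Most rises lie at high GC content and most falls at low, except the 7SL genes, GPX1 and HMGN2P4.

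Genes that make or degrade such RNAs were looked up as lists of known members. Of the nonsense-mediated decay list, 1 of 20 genes was in the table, UPF3A, which was lower. Of the nuclear exosome list, 1 of 21 was in the table, EXOSC9, an exosome core subunit, at 20.4 ± 2.73 TPM in shGPER cells and 46.3 ± 3.54 TPM in shControl cells. Of the cytoplasmic decay list 3 of 18 were in the table, the deadenylase subunits CNOT7 and CNOT8 and the decapping enzyme DCP2, and all 3 were called lower. The microRNA list held 1 of 13, DICER1, the nuclease that cuts microRNA precursors, at 3.85 ± 0.69 TPM in shGPER cells and 12.6 ± 0.53 TPM in shControl cells (SD, n = 3 each). None of 30 genes of small nuclear and nucleolar RNA making was in the table. These 6 genes were all lower, beside 50.6% of all tested genes.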

How the data were processed

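The tables of 6 SNU668 libraries were used, 3 titled shGPER and 3 titled shControl. Per the labels' protocols, total RNA was turned into stranded mRNA libraries. The deposited values are TPM per gene, made by the authors, and fastp, HISAT2 and RSEM with the build hg38 are named, without version, in the submitters' processing notes. TPM keep no read counts, so depth and counting error are unknown.

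With limma 3.58.1 (R 4.3.3; intensity trend, no covariate), log2(TPM + 1) was modelled for 1651 genes with at least 1 TPM in at least 3 libraries. P-values were two-sided, adjusted by Benjamini-Hochberg over all of them, with a threshold of 0.05. The pseudocount understates changes of low genes. The fit was tested on simulated data.

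Transcripts, positions and GC content came from GENCODE 29 (GRCh38), which held 72 of the 84 genes. Identity was computed with blastn 2.17.0, alignments with mafft 7.526, and shared words are runs of 31 bases. Some sequences and 1 of the largest falls are not reported here. A parent was the symbol without its P and number, or the gene named before the word pseudogene in the description. Other tools were Python 3.11.15, pandas 2.3.3, numpy 2.4.6, scipy 1.17.1 and matplotlib 3.10.9.

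Genes named are GPER1, members of classes of at most 3, pairs with their parent, the 12 largest rises and 12 largest falls, and members whose mean reached 10 TPM in either group. Neighbouring genes and list genes are named beside them, as are a few marked as chosen after their values were seen. The members and lists were chosen with earlier results of these data known. Alternatives were other pseudocounts (0.1, 0.5), filters (none, 5 TPM) and scalings (quantile normalization, median centring), a variance prior that was robust or had no intensity trend, removal of a GC trend (natural spline, 3 degrees of freedom), a block by replicate number and the loss of each library in turn. The replicate numbers do not pair the libraries in the labels.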

Additional observations from a re-analysis of the deposited data

How the results depend on the processing

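The counts of 21 members called higher and 22 lower stayed within 1.5 times under both other pseudocounts, median centring and either other variance prior, under quantile normalization (18 higher and 21 lower, with BTN2A3P, SPDYE10, TCAM1P and RN7SL1 lost) and without each library (21 higher each time, and 21 to 22 lower). They were 41 and 39 without a filter, 9 and 13 at 5 TPM, and 13 and 7 with the GC trend removed, where fewer genes had a value. Median centring raised all changes by 0.15. Over all tested genes the replicate numbers did not pair the libraries (correlations of deviations of same-numbered libraries 0.033, -0.087 and 0.013). The replicate block gave 21 higher and 21 lower, and the replicate block with the GC trend removed gave 12 and 7. For the 7SL genes the block lowered the SE, from 0.238 to 0.115 for RN7SL2, 0.205 to 0.106 for RN7SL1 and 0.322 to 0.134 for RN7SL3. In both groups, RN7SL2 and RN7SL1 were highest in replicate 1.

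With the GC trend removed, with and without the block, the sign turned for AMD1 (0.054), C4orf46 (0.048), ENSG00000256664 (0.041) and ENSG00000282416 (-0.058). ENSG00000279863, which the naming rule does not cover, turned as well. AMZ2P1, GTF2IP1, ENSG00000290872, ENSG00000291048 and ZNF252P have no GC value and were not fitted there; under the other alternatives no log2 change of a named gene turned. SRP54-AS1 lost its call under median centring and under the block. The copy-minus-parent difference turned sign at a pseudocount of 0.1 for CICP27 (0.21), SETP3 (-0.176), UPF3AP2 (-0.725), MEIS3P2 (0.166) and HMGN2P4 (-0.527). Under quantile normalization it turned for MEIS3P1 (-0.00016), CICP14 (-0.171) and HMGN2P4 (-0.407). That of HMGN2P4, 0.10 as reported, also turned at a pseudocount of 0.5 (-0.185), with the GC trend removed (-1.254), and without shGPER replicate 2 (-0.125) or shControl replicate 2 (-0.002), in a range of -0.125 to 0.325 over left-out libraries. The causes were not tested. TPM keep no depth, so no detection limit can be given, and the 41 untested genes are described by values alone.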
